A study of Mus musculus with 8 samples.

Results

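Transcripts of the activin, inhibin and SMAD pathway were followed in RNA pulled down with ELAVL1 from LbetaT2, a mouse line of immortalised gonadotrope-like pituitary cells. Members were the probes of an Illumina mouse bead array whose platform symbol is Acvr1b, Acvr2a, Acvr2b, Inhba, Inhbb, Smad2, Smad3, Smad7, Fst or Tgif1. Of these 10 genes 9 had a probe, 11 probes in all, among 25697 probes for 16590 named genes. Smad7, the inhibitory SMAD, had no probe under that symbol and was not analysed here. ELAVL1, also called HuR, is a protein that binds U-rich and AU-rich stretches of messenger RNA. There were 4 libraries from cells given gonadotropin-releasing hormone (GnRH) for 30 min and 4 from vehicle-treated cells at the same time point, all serum-starved for 16 h. The libraries come from 1 cell line, 1 array each, and the labels do not say that they were separate cultures. P-values therefore rest on the scatter among these arrays, which may be technical. RNA taken before the pull-down was not analysed here, so a value reports how much of a transcript the pull-down held, and more transcript in the cell and more binding cannot be told apart. No pull-down with a control antibody was analysed here, so RNA carried along without binding to ELAVL1 cannot be told apart either.

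Activins are dimers of inhibin beta subunits, and inhibins pair a beta subunit with the inhibin alpha subunit. Activin binds a type II receptor, which recruits and activates a type I receptor, and the activated receptor phosphorylates SMAD2 and SMAD3. These enter the nucleus with SMAD4 and act on target genes. In gonadotropes activin drives transcription of the follicle-stimulating hormone beta subunit, while inhibin and the binding protein follistatin oppose it.

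The arrays were of similar quality with 1 exception in brightness. Between 42.0% and 45.4% of probes were above background on each array (detection p below 0.05). Mean raw signal was 203 to 255 on the GnRH arrays and 221 to 238 on vehicle replicates 1 to 3, while vehicle replicate 4 was dimmer, at 142. Of 10 gonadotrope markers 8 were above background on at least 4 arrays, among them Gnrhr, Cga, Foxl2 and Pitx1, and Lhb and Fshb were above background on none. None of 7 measured markers of other pituitary lineages and none of 4 of blood was above background on 4 arrays. Of 8 stromal and endothelial markers 3 were, the endothelial genes Cdh5, Kdr and Pecam1. The summed raw signal of that list was 1943 to 2969 on the GnRH arrays and 1619 to 2726 on the vehicle arrays. All arrays came from 1 cell line, and why these 3 endothelial genes gave signal was not tested.

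Among the members, 6 genes with 1 probe each were above background on all 8 arrays: Inhbb, Acvr2a, Acvr2b, Smad2, Smad3 and Tgif1. After GnRH, Tgif1 stood 1.99-fold higher in the pull-down, short of the threshold, and the other 5 stood between 0.806-fold and 0.971-fold of vehicle. Without normalization between arrays Inhbb, at 0.11, and Smad2, at 0.0061, lay above 0 on the log2 scale, where the median of all tested probes was also shifted, to 0.11, so that Smad2 still lay below that median. None of the 6 tested member probes passed as higher (limma, adjusted p below 0.05), where 0.265% of all 11318 tested probes did, and none passed as lower, where 0% did. With no adjustment (p below 0.05), 1 member probe, that of Tgif1, was higher and 0 were lower, beside 2.09% and 0.813% of all tested probes. The median log2 change was -0.15 over the 6 member probes and -0.008 over all tested probes. Inhba, Fst and Acvr1b were above background on no array, so for them no change is given. The plot of raw signals shows every member probe on every array.

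**Figure D1:**
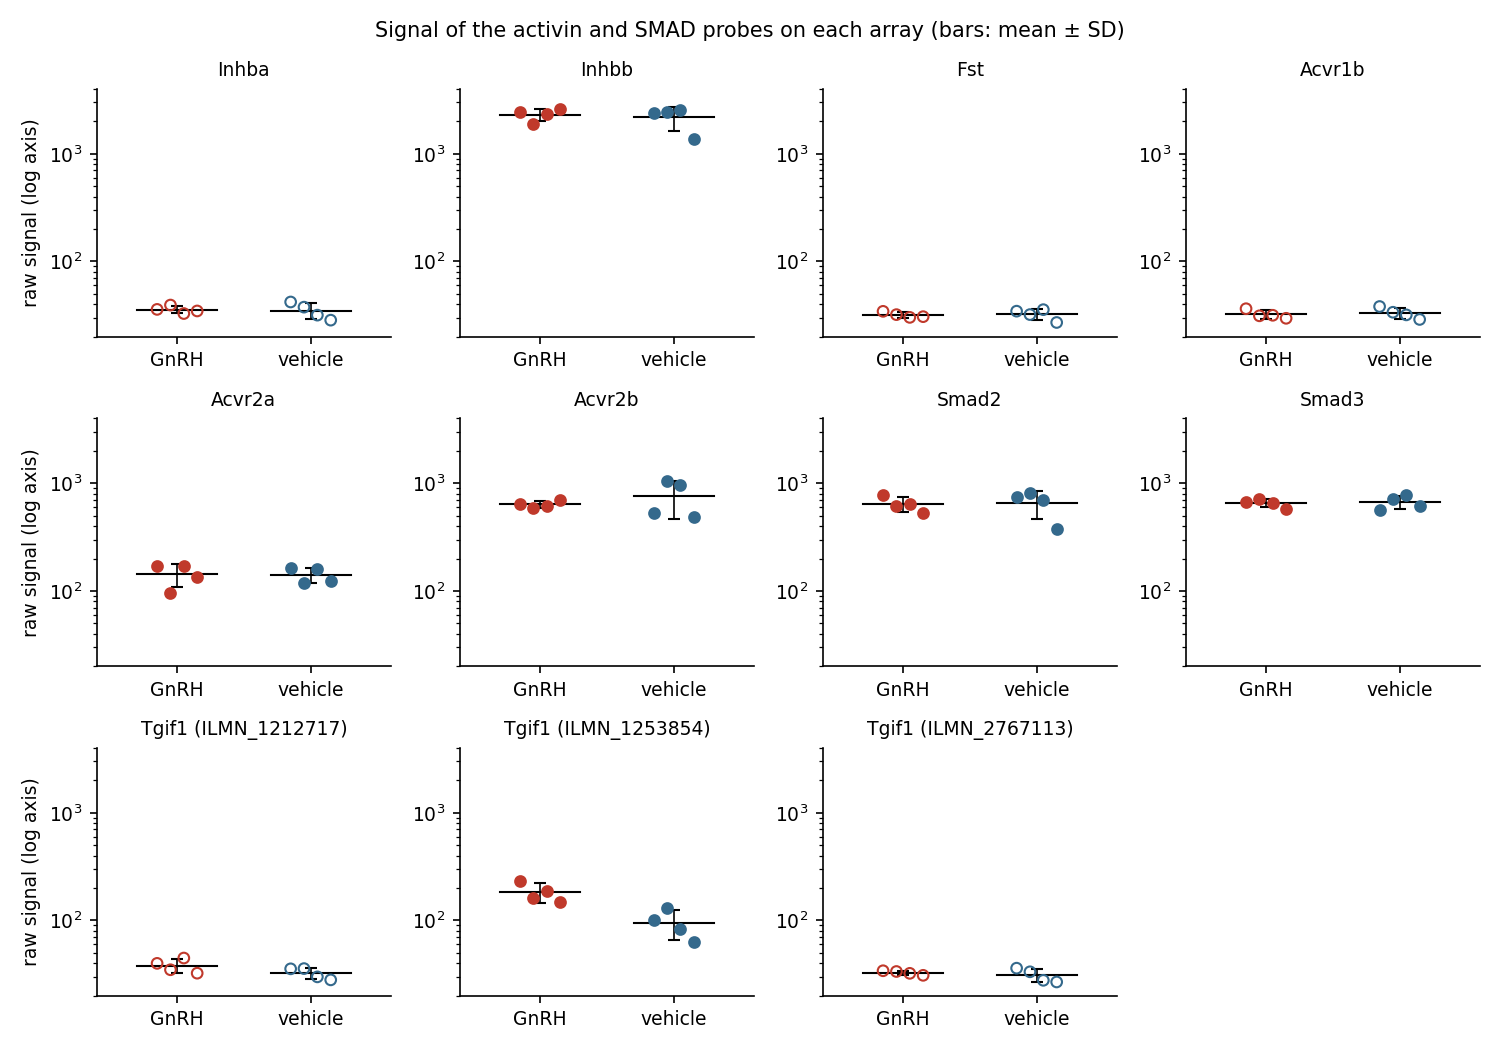
Raw bead signal (log axis) of the 11 member probes on the 4 GnRH arrays (left, red) and the 4 vehicle arrays (right, blue), with mean ± SD as bars. Filled points mark the 6 tested probes and open points the 5 others. The Tgif1 probe ILMN_1253854 is the one tested probe whose GnRH points all lie above its vehicle points.

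Tgif1 encodes a homeodomain repressor that binds SMAD2 and SMAD3 and recruits corepressors to their target genes. Its probe ILMN_1253854 had raw signals of 235, 161, 186 and 150 on GnRH replicates 1 to 4, against 101, 132, 83.6 and 63.3 on vehicle replicates 1 to 4. All 4 GnRH values lay above all 4 vehicle values, before any scaling between arrays, and the lowest GnRH and the highest vehicle array were close together. After normalization the log2 signals were 7.46, 7.19, 7.39 and 7.08 after GnRH, against 6.35, 6.69, 6.06 and 6.06 in vehicle. The means were 7.28 ± 0.18 after GnRH and 6.29 ± 0.30 in vehicle (SD, n = 4 each).

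The difference for Tgif1 was 0.99 ± 0.18 on the log2 scale (SE, 95% interval 0.60 to 1.38), a ratio of 1.99 with an interval of 1.52 to 2.61. Adjusted over all 11318 tested probes it missed the threshold (limma adjusted p = 0.0612, rank 33 of 11318 by p). An exact permutation test of this 1 probe, two-sided, gave p = 0.0286, the smallest that 4 against 4 arrays allow. Of all tested probes 1.53% had their 4 GnRH values above their 4 vehicle values and 0.618% had them all below, which held for 1 and 0 of the 6 member probes. The call depended on the processing, since Tgif1 passed under 4 of 20 alternative settings (adjusted p between 0.0135 and 0.291, limma), with a log2 change of 0.75 to 1.13 over all 20. One of the 4 leaves out vehicle replicate 2, the vehicle array with the highest Tgif1 signal, and gives 1.13 ± 0.16 (adjusted p = 0.0333, limma). The others are array weights, the sample number as covariate and the replicate number as a block (adjusted p = 0.0315, limma). Deviations from the group means correlated unevenly between arrays of the same number, at 0.72, -0.23, 0.26 and 0.65 for replicates 1 to 4. As replicate 2 was negative and the labels name no batch, the reported fit took no pairs. The call for Tgif1 depends on that choice, among others. Without the dim vehicle replicate 4 the log2 change was 0.92 ± 0.18 (adjusted p = 0.189, limma).

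**Figure D2:**
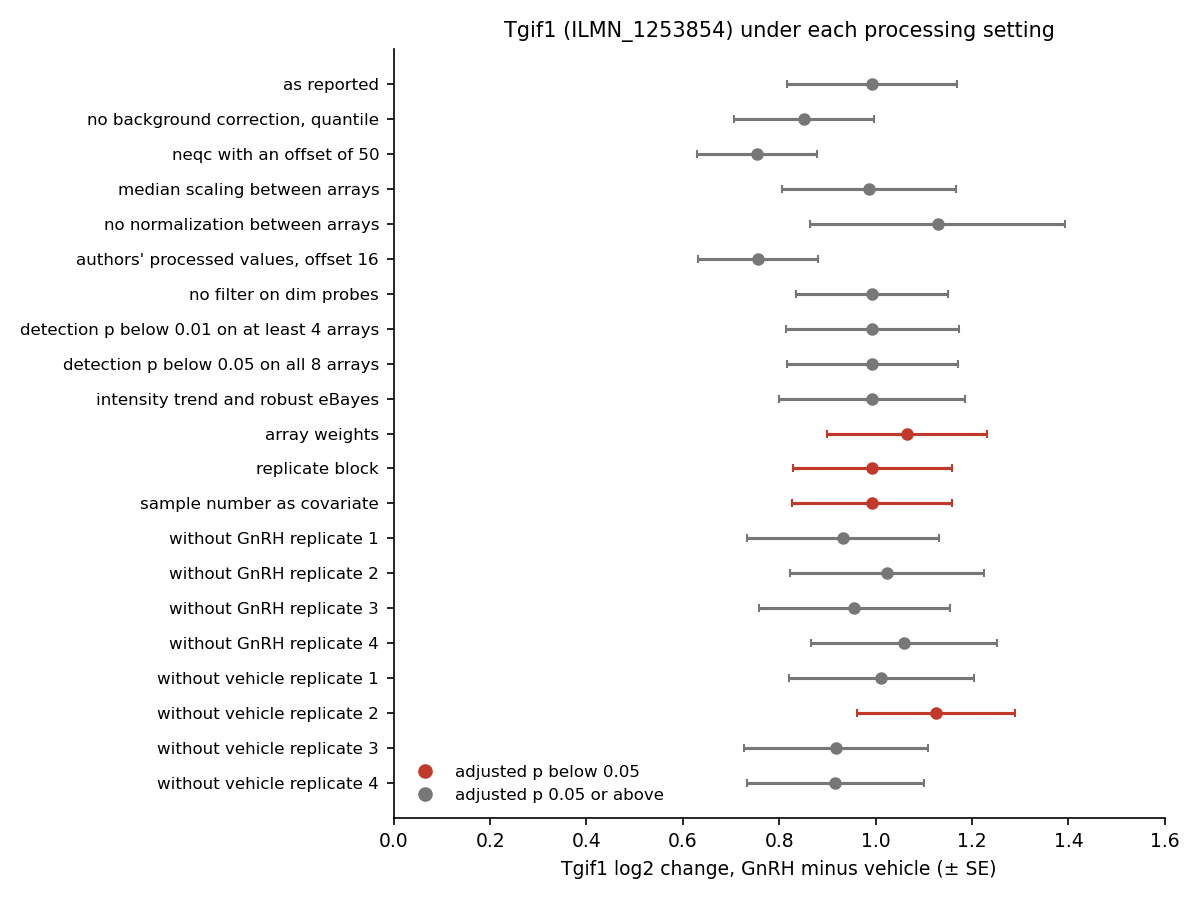
Log2 change of Tgif1 (ILMN_1253854), GnRH minus vehicle, with its SE, in the reported fit and under 20 alternative settings. Red points have an adjusted p below 0.05 and grey points do not. Every estimate lies between 0.75 and 1.13, and 4 of the 20 alternatives are red.

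The other Tgif1 probes carried little signal. ILMN_1212717 had 39.9, 34.8, 44.7 and 32.3 after GnRH, against 35.5, 35.7, 29.9 and 28.0 in vehicle, and was above background on GnRH replicate 3 alone. ILMN_2767113 lay between 30.9 and 34.1 after GnRH and between 26.8 and 36.0 in vehicle, above background on 0 arrays. The difference seen with ILMN_1253854 thus could not be read on another probe of the gene.

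RefSeq lists 5 start sites for Tgif1 on chromosome 17, and the annotation used here gives the 3 probes the same accession. The 100 bases around each start (50 before to 50 after, GRCm38.p6, minus strand, RefSeq) are shown because Tgif1 is the member with the lowest p and its starts differ in sequence. Capitals mark TGTCA or its reverse complement TGACA, the core that TGIF proteins bind.
Tgif1 start 1, chr17:70853483-70853582: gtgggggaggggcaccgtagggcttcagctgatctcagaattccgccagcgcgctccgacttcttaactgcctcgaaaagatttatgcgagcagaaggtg
Tgif1 start 2, chr17:70851685-70851784: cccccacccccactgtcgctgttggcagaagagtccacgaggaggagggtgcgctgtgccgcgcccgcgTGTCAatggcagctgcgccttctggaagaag
Tgif1 start 3, chr17:70851161-70851260: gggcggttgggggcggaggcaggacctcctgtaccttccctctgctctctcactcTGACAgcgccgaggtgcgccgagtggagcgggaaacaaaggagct
Tgif1 start 4, chr17:70849741-70849840: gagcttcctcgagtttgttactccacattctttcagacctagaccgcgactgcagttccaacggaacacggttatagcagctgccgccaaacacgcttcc
Tgif1 start 5, chr17:70846728-70846827: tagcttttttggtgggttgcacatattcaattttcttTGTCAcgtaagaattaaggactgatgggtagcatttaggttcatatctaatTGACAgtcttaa

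The G and C content of these stretches was 57%, 67%, 66%, 53% and 34% for starts 1 to 5, so start 5 is the most A- and T-rich. Windows of 300 bases (250 before to 50 after a start) were searched on both strands for TGTCA and for motifs of factors that respond to GnRH or activin. These were the cyclic AMP response element TGACGTCA and its core TGACG, which overlaps it, the AP-1 site TGANTCA, the EGR site GCGNGGGCG and the SMAD palindrome GTCTAGAC. TGTCA was found in 4 of the 5 Tgif1 windows, beside 45.4% of all 32851 windows. None of the other 5 motifs was found in a Tgif1 window. Over all windows TGACGTCA was found in 1.79%, TGACG in 20.8%, TGANTCA in 7.81%, GCGNGGGCG in 5.55% and GTCTAGAC in 0.213%. Windows of 6 other members, Acvr1b, Acvr2a, Acvr2b, Inhba, Inhbb and Smad3, held 1 match in all, a GCGNGGGCG of Acvr1b starting 21 bases before its start site. Smad2, Smad7 and Fst had no window in the set used and were not searched. A match is a string of letters, and no match says nothing about a factor.

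The genes whose log2 signal followed that of Tgif1 most closely over the 8 arrays were Zbtb21 (Pearson r = 0.952), Irak2 (r = 0.951) and Rnaseh1 (r = 0.949). Irak2, a kinase of interleukin-1 receptor signalling, rose, with a log2 change of 1.70 ± 0.17 (SE, adjusted p = 0.00120 by limma). Zbtb21 stood at 0.34 ± 0.13 and Rnaseh1 at 0.30 ± 0.12, and neither passed (limma adjusted p = 1.00 for each). The 8 arrays differ in treatment, 4 with GnRH and 4 with vehicle, and that difference enters these correlations. They were also picked as the highest among the named genes of all 11318 tested probes, over only 8 arrays. Such a choice by itself favours high values, here and for Acvr2b and Smad2 below.

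Of the ligand genes, only Inhbb was measured above background among the members. Inhbb encodes the inhibin beta B subunit, the building block of activin B. Its raw signal was 2432, 1885, 2337 and 2607 on GnRH replicates 1 to 4, against 2409, 2459, 2540 and 1361 on vehicle replicates 1 to 4. The low vehicle value belongs to the dim array and was no longer low after normalization, where log2 signals were 10.99, 10.82, 11.15 and 11.46 after GnRH, against 11.16, 11.08, 11.23 and 11.11 in vehicle. The groups overlapped, the vehicle values lying inside the range of the GnRH values. The difference was -0.04 ± 0.16 (SE, limma adjusted p = 1.00), and its 95% interval as a ratio was 0.761 to 1.24.

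Inhba, which encodes the beta A subunit of activin A, had raw signals of 32.8 to 39.3 after GnRH and 28.5 to 42.0 in vehicle, above background on 0 of 8 arrays. Fst, which encodes follistatin, lay at 30.2 to 34.4 after GnRH and 27.1 to 35.6 in vehicle, also above background on 0 arrays. Both probes thus gave no level to compare. A probe below background does not show that the transcript was absent.

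Inha, the inhibin alpha subunit, belongs to the wider list of superfamily genes below and completes this group. Its raw signals were 57.4, 57.9, 53.8 and 63.1 after GnRH, against 44.1, 45.9, 44.4 and 41.4 in vehicle, and it was above background on 4 GnRH and 3 vehicle arrays. In raw signal the groups did not overlap, while after normalization GnRH replicate 1, at 5.05, lay below vehicle replicate 4, at 5.08. The log2 difference was 0.47 ± 0.16 (SE), which did not pass (limma adjusted p = 1.00).

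The type II receptors Acvr2a and Acvr2b bind activin first. Acvr2a had log2 signals of 6.95, 6.31, 7.23 and 6.92 after GnRH, against 7.16, 6.49, 7.16 and 7.29 in vehicle. Replicate 2 was the lowest array of each group, and the groups overlapped. The difference was -0.17 ± 0.23 (SE, limma adjusted p = 1.00), with a 95% interval as a ratio of 0.621 to 1.27. Its residual SD of 0.37 exceeded that of 77.1% of tested probes, the widest spread among the 6 members.

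Acvr2b stood at 8.97, 9.14, 9.25 and 9.54 after GnRH, against 8.97, 9.85, 9.83 and 9.50 in vehicle. Vehicle replicates 2 and 3 were the highest of the 8 arrays, vehicle replicate 1 lay level with the lowest GnRH array, and the vehicle SD was 0.41, against 0.24 after GnRH (n = 4 each). The difference of -0.31 ± 0.22 (SE) did not pass (limma adjusted p = 1.00), and its interval as a ratio ran from 0.578 to 1.12. Vehicle replicates 2 and 3 were also the 2 highest arrays for 11.8% of all tested probes, the commonest pair, and for 4 of the 42 tested probes of the wider list described below (9.52%). Nearly as common over all tested probes were GnRH and vehicle replicate 4, at 10.7%, and GnRH and vehicle replicate 1, at 9.82%. Among the genes most alike to Acvr2b in pattern were Ppp6r3 (Pearson r = 0.977 over 8 arrays), Faap100 (r = 0.974) and Fkbp8 (r = 0.972), none of which passed on its own (limma adjusted p = 1.00 throughout).

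The size of the Acvr2b difference moved with single arrays. It was -0.50 ± 0.17 (SE, limma adjusted p = 0.429) without vehicle replicate 1, the low vehicle array, and -0.21 ± 0.23 without vehicle replicate 2 (limma adjusted p = 1.00), with the same rounded value without vehicle replicate 3. With arrays weighted by quality it was -0.59 ± 0.17 (SE, limma adjusted p = 0.130). All 20 alternatives gave a value below 0 and none passed.

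**Figure D3:**
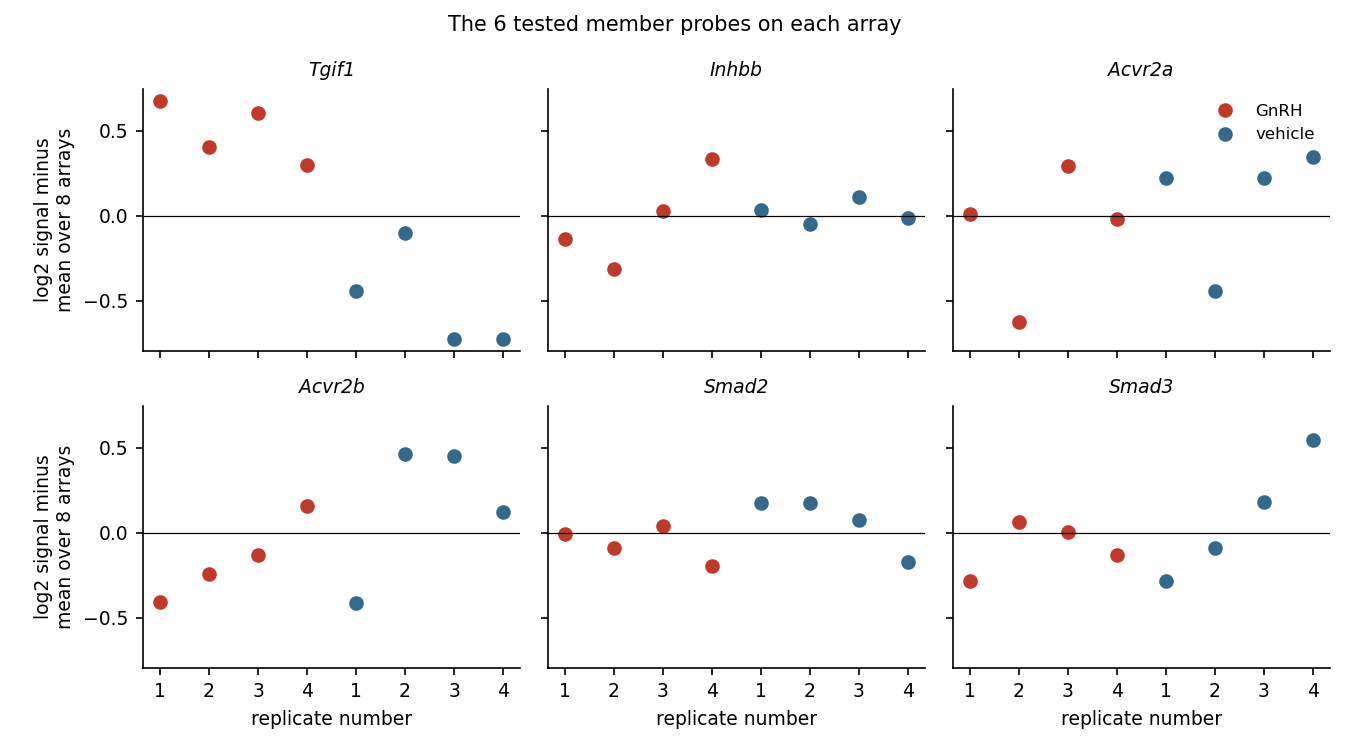
Log2 signal of each of the 6 tested member probes on the 4 GnRH arrays (left, red) and the 4 vehicle arrays (right, blue), as the difference from the probe's mean over the 8 arrays. For Tgif1 all red points lie above all blue points, and for the other 5 members the groups overlap.

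Acvr1b, the type I receptor that activin uses most widely, lay at 29.6 to 36.4 in raw signal after GnRH and 28.9 to 38.1 in vehicle, above background on 0 of 8 arrays. The related type I receptors Acvr1c, which can carry activin B signals, Acvr1 and Tgfbr1 each had a probe above background on all 8 arrays. Probes of Tgfbr2, the type II receptor of TGF-beta, were above background on none.

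Smad2 and Smad3 encode the receptor-activated SMADs of activin signalling. Smad2 had log2 signals of 9.28, 9.20, 9.33 and 9.09 after GnRH, against 9.46, 9.46, 9.36 and 9.12 in vehicle. The groups overlapped through vehicle replicate 4, which lay below GnRH replicates 1 to 3. The difference was -0.13 ± 0.14 (SE, limma adjusted p = 1.00), with an interval as a ratio of 0.741 to 1.13. Its residual SD of 0.14 was the smallest of the 6 members, and 8.09% of tested probes had a smaller one. Most alike in pattern were Nudcd2 (Pearson r = 0.990 over 8 arrays), Smim15 (r = 0.968) and Chmp1b (r = 0.966), none of which passed (limma adjusted p = 1.00 for each).

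Smad3 stood at 9.07, 9.42, 9.36 and 9.22 after GnRH, against 9.07, 9.26, 9.53 and 9.90 in vehicle. Replicate 1 was the lowest array of each group and vehicle replicate 4 the highest of all 8. The difference was -0.17 ± 0.19 (SE, limma adjusted p = 1.00), with an interval as a ratio of 0.663 to 1.19. It was -0.02 ± 0.17 (SE, limma adjusted p = 0.994) without vehicle replicate 4 and -0.30 ± 0.18 (limma adjusted p = 0.609) without vehicle replicate 1. Without normalization between arrays it was -0.03 ± 0.19 (limma adjusted p = 0.999). The median of all tested probes was 0.11 in that setting, so Smad3 still lay below it. For Inhbb, Acvr2a, Acvr2b, Smad2 and Smad3 the intervals thus leave out a doubling, a ratio of 2, and leave room for smaller differences in both directions.

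**Figure D4:**
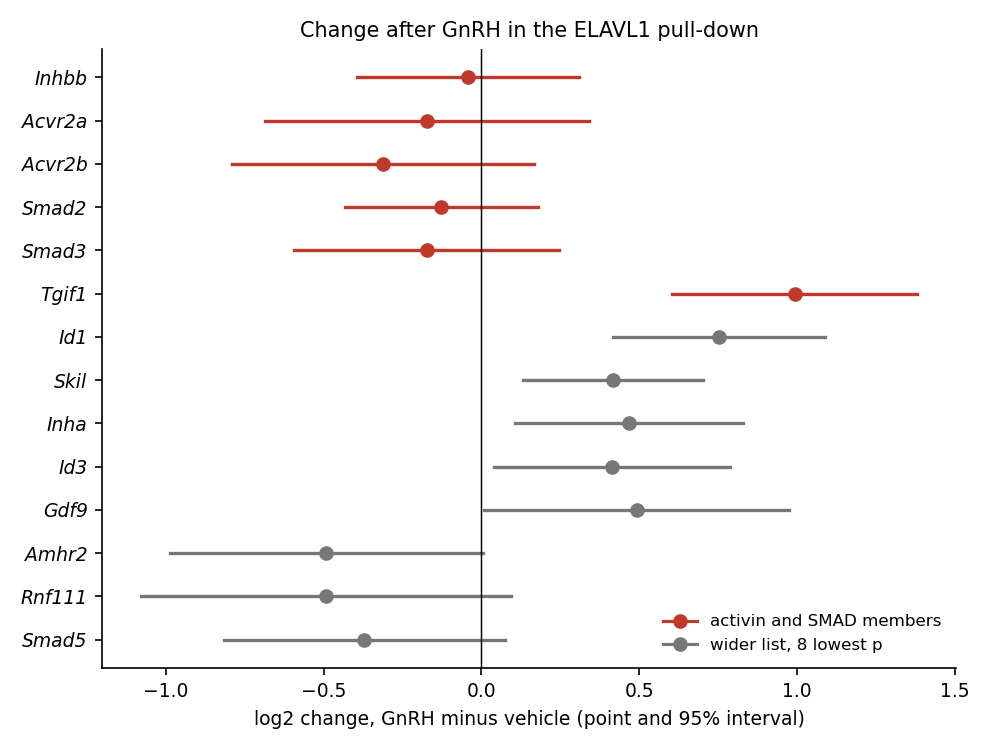
Log2 change, GnRH minus vehicle, with its 95% interval, for the 6 tested members (red) and the 8 genes of the wider list with the lowest p (grey). The interval of Tgif1 (0.60 to 1.38) lies above 0, those of the other 5 members span 0, and no gene shown passed after adjustment over all tested probes.

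A wider list of 56 genes of the TGF-beta superfamily, its receptors, SMADs, inhibitors and targets was read from the same fit. Of these 52 had a probe and 28 genes, by 42 probes, were tested, while 18 genes were above background on no array, among them Tgfb1, Bmp4, Nog and Smad9. None of the 42 probes passed in either direction (limma, adjusted p below 0.05). With no adjustment (p below 0.05), 5 of them were higher and 0 lower, beside 2.09% and 0.813% of all tested probes. The 5 were those of Id1, Skil, Inha, Id3 and Gdf9, and Inha and Id3 were not above background on every vehicle array. The list's median log2 change was 0.01 over its probes, with 22 above 0 and 20 below.

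Id1, an inhibitor of helix-loop-helix factors and a target of bone morphogenetic protein signalling, had the lowest p of the wider list. Its log2 signals were 7.76, 7.83, 7.60 and 7.70 after GnRH, against 7.14, 7.05, 6.62 and 7.07 in vehicle, with no overlap. The difference was 0.75 ± 0.15 (SE, limma adjusted p = 0.136). Skil, which encodes the SMAD corepressor SnoN, had 9.79, 9.87, 9.82 and 9.95 after GnRH, against 9.54, 9.27, 9.52 and 9.43 in vehicle, and did not overlap either. Its difference of 0.42 ± 0.13 did not pass (limma adjusted p = 1.00).

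Id3, a relative of Id1, stood at 0.41 ± 0.17 and Gdf9, a growth factor known from the oocyte, at 0.49 ± 0.22 (log2 change ± SE). Negative differences were -0.49 ± 0.22 for Amhr2, the receptor of anti-Müllerian hormone, -0.49 ± 0.26 for Rnf111, a ubiquitin ligase that removes inhibitors of SMAD signalling, and -0.37 ± 0.20 for Smad5. Of these 5 none passed (limma adjusted p = 1.00 for each). Other probes of these genes gave -0.15 ± 0.25 and -0.12 ± 0.26 for Amhr2, -0.23 ± 0.34 for Rnf111 and -0.25 ± 0.17 for Smad5. Id3 was dim, at raw signals of 48.8 to 57.8 after GnRH and 34.8 to 53.2 in vehicle. It was above background on 4 GnRH and 2 vehicle arrays. Id3 thus reached the filter of 4 arrays through the GnRH group, where it was higher. The Amhr2 probe of lowest p was dim too, at 40.3 to 77.3. With an offset of 50 the log2 change was 0.19 for Id3 and -0.25 for that Amhr2 probe. Members and list are set among all tested probes in the plot of change against signal.

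**Figure D5:**
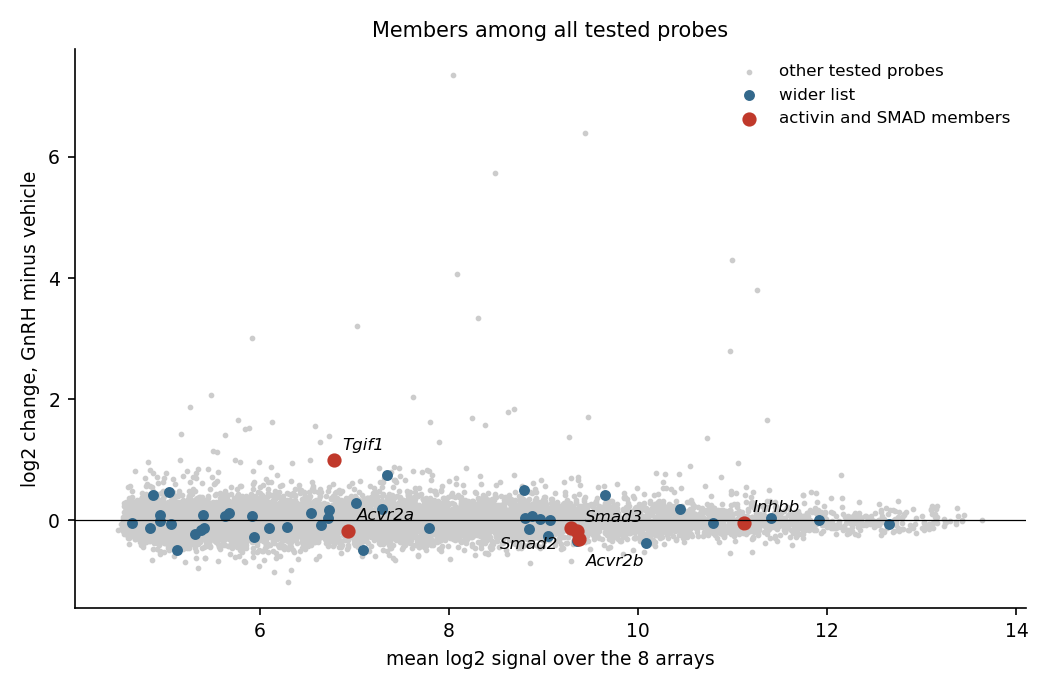
Log2 change, GnRH minus vehicle, against mean log2 signal over the 8 arrays for all 11318 tested probes (grey), the 42 probes of the wider list (blue) and the 6 member probes (red). Tgif1, at 0.99, is the one member away from the band around 0 that holds most probes.

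Genes on which activin and GnRH act in gonadotropes were read beside the members. Fshb and Lhb, the gonadotropin beta subunits, were above background on 0 arrays. Cga, the shared alpha subunit, averaged 12.07 ± 0.23 on GnRH arrays and 11.60 ± 0.17 on vehicle arrays (log2, SD, n = 4 each), which did not pass (limma adjusted p = 1.00). Egr1, an immediate early transcription factor, had a log2 change of 3.80 ± 0.19 (SE, adjusted p = 2.57e-06, limma), a rise in all 4 GnRH arrays over all 4 vehicle arrays. Nr5a1, a gonadotrope lineage factor, was above background by 1 probe on 3 GnRH arrays and 1 vehicle array, with a difference of 0.12 ± 0.14 (limma adjusted p = 1.00). Another Nr5a1 probe was above background on 0 GnRH arrays and 1 vehicle array and was not tested. Gnrhr, the receptor of GnRH, was the brightest probe of every array and is therefore made equal by quantile normalization. It differed by -0.0079 ± 0.15 after median scaling (limma adjusted p = 1.00).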

How the data were processed

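Average bead intensity and a detection p-value per probe and array were taken as deposited, with no normalization between arrays per the file headers and values. Software of the scanner: not given in the sources used here. The authors' processed intensity table, whose normalization is unstated, served as an alternative (Spearman rho with raw signal at least 0.997 across probes). ELAVL1 pull-downs were labelled with biotin, per the labels' protocols.

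Signals were background-corrected by normexp from detection p-values (offset 16), quantile-normalized and put on log2 (limma 3.58.1, R 4.3.3). Probes above background (detection p below 0.05) on 4 or more arrays, 11318 of 25697, were fitted with lmFit and eBayes and adjusted by Benjamini-Hochberg (threshold 0.05). The fit was tested on simulated data with independent values on each array. These lacked the correlation between arrays seen here, so that test does not cover it. The number of arrays limits the precision.

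Platform annotation gave 23978 probes 1 symbol and 1719 none. It was updated through RefSeq (GRCm38.p6), and 23962 probes matched by gene identifier. Members, wider list and markers were chosen with earlier results of these data known. The text names all members, the 8 wider-list genes with the lowest p, and the 3 genes most correlated with each of the 3 members of lowest p. The pair of high arrays was looked at after the Acvr2b values were seen. Alternatives covered background, normalization, dim-probe filter, variance model, array weights, replicate block, sample number and each array left out.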

Additional observations from a re-analysis of the deposited data

Results flagged for a closer look

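Acvr2a, on vehicle replicate 2, lay far from the other vehicle arrays. Its log2 signal there was 6.49, while the other 3 vehicle arrays lay between 7.16 and 7.29, and the gap to the nearest array was 0.839 of the group's range. Chance gives such a gap in about 1 in 20 groups of this size. Both groups of every tested member, of the named wider-list genes and of the tested target genes were checked. Such a gap in 1 of them is therefore not unusual. GnRH replicate 2 was also the lowest of its group, at 6.31.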

How the results depend on the processing

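Of the 6 tested members, Acvr2b, Smad3 and Tgif1 kept their direction under all 20 alternatives, though Smad3 ranged from -0.30 to -0.02 and Acvr2b from -0.59 to -0.17. Tgif1 passed with array weights (adjusted p = 0.0135, limma), with the replicate number as a block (adjusted p = 0.0315), with the sample number as covariate (adjusted p = 0.0464) and without vehicle replicate 2 (adjusted p = 0.0333), so the count of member probes higher was 1 under each of these 4. The count of member probes higher ranged from 0 to 1 when each array was left out in turn. With array weights 46 probes were higher and 4 lower, and 1 wider-list gene, Id1, was higher (log2 change 0.93, adjusted p = 0.0110, limma). Without the filter on dim probes 14 were higher. Leaving out each array gave 17 to 27 probes higher, the lowest without vehicle replicate 3, and 0 to 1 lower, the 1 without vehicle replicate 1. Without normalization between arrays Inhbb (0.11) and Smad2 (0.0061) turned positive, where the median of all tested probes moved to 0.11 as well, so that Smad2 stayed below that median. With array weights the sign turned for an Rnf111 probe (0.26). Over the arrays left out in turn, log2 changes ranged from -0.35 to 0.0077 for Acvr2a, from -0.16 to 0.054 for Inhbb, from -0.42 to 0.12 for that Rnf111 probe and from -0.38 to 0.017 for an Amhr2 probe. The causes of the other changes were not tested. Samples of the same replicate number had correlated deviations of 0.72, -0.23, 0.26 and 0.65, and 5 of 8 arrays correlated best with the array of their own number. So 3 of the numbers went together, and replicate 2 did not. As the labels name no batch either, the numbers were not taken as pairs. That choice decides whether Tgif1 passes (limma adjusted p = 0.0612 as reported, 0.0315 with the block). With the replicate block 43 probes were higher and 0 lower. Averaging a gene's probes gave no other value, since each tested member had 1 tested probe.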
